A study of Mus musculus with 36 samples.

Results

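The 6 genes Ms4a4a, Ms4a4c, Ms4a6b, Ms4a6c, Ms4a6d and Ms4a7 were taken by symbol, out of 30205 genes listed in mouse bone cell libraries, and their values were compared across 2 genotypes and 3 kinds of culture. RNA was sequenced from bone marrow macrophages (BMM), RANK-L cultures labelled osteoclasts (OC) and osteoblast cultures (OB), each from control mice (WT) or from Mir324-null mice (null), which lack a microRNA gene. Each of the 6 groups had 6 libraries. All mice were 20 weeks old, and the labels used here give neither strain nor sex. BMM were marrow cells expanded with the macrophage growth factor M-CSF at 100 ng/mL for 3 days and then kept with M-CSF at 30 ng/mL for 5 days. OC cultures were the same marrow cells kept for those 5 days with M-CSF at 30 ng/mL and RANK-L, the cytokine that drives osteoclast formation, at 50 ng/mL. OB cultures grew out of collagenase-treated bone chips over about 6 weeks and then spent 18 days in medium with 2 mM β-glycerophosphate and ascorbic acid at 50 µg/mL. No label says whether the libraries of a group came from different mice, so p-values measure the spread between these libraries, which may be technical.

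Ms4a proteins cross the membrane several times and are found at the cell surface and on internal membranes, where several of them sit beside receptors. Ms4a1 is the B cell protein CD20, Ms4a2 is the beta chain of the high-affinity IgE receptor of mast cells, and Ms4a4a is found on alternatively activated macrophages, where it works with the fungal receptor Clec7a (dectin-1). Ms4a7 and the Ms4a6 genes are known as genes of tissue macrophages and monocytes, and the human MS4A region is known for its link to levels of soluble TREM2, a receptor of microglia, macrophages and osteoclasts.

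Estimated counts per library ranged from 14118972 to 26347581. The labelled cell types were checked against 3 lists of defining genes. The summed level of 16 osteoclast genes was 33082 to 35519 CPM (counts relative to the scaled size of each library) in WT OC but 1248 to 1674 CPM in null OC, beside 1038 to 1147 CPM in null BMM and 1179 to 1331 CPM in WT BMM. Null OC lay wholly above null BMM, with 9 of the 16 genes higher and 0 lower (median 0.45), but all 16 were below WT OC and the calcitonin receptor gene Calcr was at 0 in all 6 null OC libraries. The label OC is kept for these libraries, although their osteoclast genes were far below those of WT OC. The summed level of 14 macrophage genes was 48054 to 59670 CPM in WT BMM and 56315 to 66097 CPM in null BMM. It was 13525 to 16173 CPM in WT OC and 53206 to 64035 CPM in null OC. In OB cultures the macrophage genes summed to 15755 to 19336 CPM in WT and 8453 to 12057 CPM in null, so both OB groups held macrophage RNA. Beside them 15 osteoblast genes summed to 71493 to 95853 CPM in WT and 110842 to 132398 CPM in null, without overlap. The 16 osteoclast genes summed to 4558 to 5771 CPM in WT OB and 5425 to 8291 CPM in null OB. In such bulk samples fewer cells of a type and less RNA per cell cannot be told apart. The level of Mir324 was not analysed here, and the genotype labels have no check of that kind.

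The 6 genes lie in 1 cluster of 19 protein-coding Ms4a genes on chromosome 19 (GRCm38, 10962293 to 11640851, 679 kb). Ms4a7 (ENSMUSG00000024672.11) is at 11321039 to 11336146 on the minus strand. Ms4a4a (11375523 to 11392790), Ms4a4c (11404770 to 11427246), Ms4a6c (11469366 to 11482192) and Ms4a6b (11516512 to 11531256) follow on the plus strand, and Ms4a6d (11586604 to 11604849) is read from the minus strand again. Counting was by transcript, so sequence shared with other genes bears on each value. No run of 31 bases in the Ms4a4a transcript occurred in another gene, against 1.42% of such runs in Ms4a7, 7.90% in Ms4a6b, 8.11% in Ms4a6d and 17.1% in Ms4a4c. For Ms4a6c the share was 58.1%, or 20.9% when only genes listed in these libraries were searched. The larger share includes BE692007, a noncoding gene that overlaps Ms4a6c, and whether reads were assigned by strand is not given in the sources used here, so Ms4a6c is the least certain of the 6.

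The microRNAs of the deleted gene are shown because their seeds are the letters searched for in the Ms4a transcripts. Both mature sequences were taken from RefSeq (GRCm38.p6, chr11:70012060-70012082 and chr11:70012095-70012114, plus strand), and the capitals mark the seed, bases 2 to 8.
miR-324-5p: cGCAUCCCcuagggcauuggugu
miR-324-3p: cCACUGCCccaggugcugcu
A match to the whole 5p seed (GGGATGC) or to the whole 3p seed (GGCAGTG) occurred 0 times in the 3′ UTRs of the 6 genes, taking the longest annotated one of each. These were 1676 bases for Ms4a6b, 983 for Ms4a6c, 913 for Ms4a4c, 485 for Ms4a6d and 481 for Ms4a7, while for Ms4a4a only the 3 bases of the stop codon are annotated there. Of 21849 genes with a 3′ UTR, 7.94% held the 5p site and 13.7% the 3p site.

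The start regions of Ms4a6b and Ms4a6c are shown because these genes share sequence there. Their ratio differed between genotypes, most in BMM (described with the ratios of members), while both genes rose in null OC and both fell in null OB. The 250 bases before the RefSeq start of each gene (GRCm38.p6, plus strand, chr19:11518309-11518558 and chr19:11469118-11469367) are printed with the longest run common to both in capitals, 48 bases at positions -118 to -71 of Ms4a6b and -49 to -2 of Ms4a6c.
Ms4a6b: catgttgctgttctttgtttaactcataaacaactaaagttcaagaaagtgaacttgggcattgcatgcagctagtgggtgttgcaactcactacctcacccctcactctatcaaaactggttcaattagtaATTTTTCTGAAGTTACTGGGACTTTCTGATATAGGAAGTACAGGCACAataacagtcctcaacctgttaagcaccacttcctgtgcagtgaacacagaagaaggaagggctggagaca
Ms4a6c: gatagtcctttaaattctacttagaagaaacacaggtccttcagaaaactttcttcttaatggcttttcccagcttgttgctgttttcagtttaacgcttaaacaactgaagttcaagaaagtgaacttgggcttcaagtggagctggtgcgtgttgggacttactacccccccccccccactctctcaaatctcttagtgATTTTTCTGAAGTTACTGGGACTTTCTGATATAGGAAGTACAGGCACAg
The other 14 pairs of start regions among these genes, with 2 starts for Ms4a7 and none listed for Ms4a6d, shared runs of 7 to 9 bases at most. Among 8 short motifs of myeloid factors searched on both strands, the 6 start regions held 3 matches. They were GAGGAA (the letters searched for PU.1) in Ms4a4c, and TGANTCA (AP-1) and TGGAAA (NFAT) in Ms4a7. Of 32851 start regions of the same length, 23.3%, 6.75% and 18.6% held these letters. Only exact matches to the searched letters were counted, so other forms of such sites were missed. The run in capitals holds TAGGAA, which was not counted. The search therefore cannot show that Ms4a6b or Ms4a6c lacks a PU.1 site.

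Per unit of transcript length, Ms4a7 stood far above its relatives in every group. Its mean level was 2401 ± 354 TPM (transcript abundance per unit length, SD, n = 6) in WT BMM, 3912 ± 316 TPM in null BMM, 416 ± 43.9 TPM in WT OC, 3002 ± 332 TPM in null OC, 1334 ± 92.8 TPM in WT OB and 810.1 ± 63.3 TPM in null OB. That placed it 18th among 30205 genes in null BMM, 24th in null OC, 41st in WT BMM and 389th in WT OC. Ms4a6d (135 to 603 TPM as group means) and Ms4a6c (83.1 to 376 TPM) came next, followed by Ms4a6b (24.1 to 161 TPM), Ms4a4a (5.59 to 60.1 TPM) and Ms4a4c (1.49 to 2.90 TPM). The order of the 6 genes by mean TPM was the same in all 6 groups. Together they held 99.0% to 99.6% of the TPM of all Ms4a genes, and the sum of the 6 was 3339 ± 500.3 TPM in WT BMM, 5019 ± 298 in null BMM, 665 ± 54.3 in WT OC, 3940.4 ± 444 in null OC, 1911 ± 130.1 in WT OB and 1189 ± 95.2 in null OB. Ms4a7 made up 62.4% of that sum in WT OC and 77.9% in null BMM, its lowest and highest group means, and Ms4a6d 20.4% in WT OC and 11.7% in WT BMM. The level of WT OC was thus the lowest of the 6 groups both in sum and in the share held by Ms4a7.

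**Figure D1:**
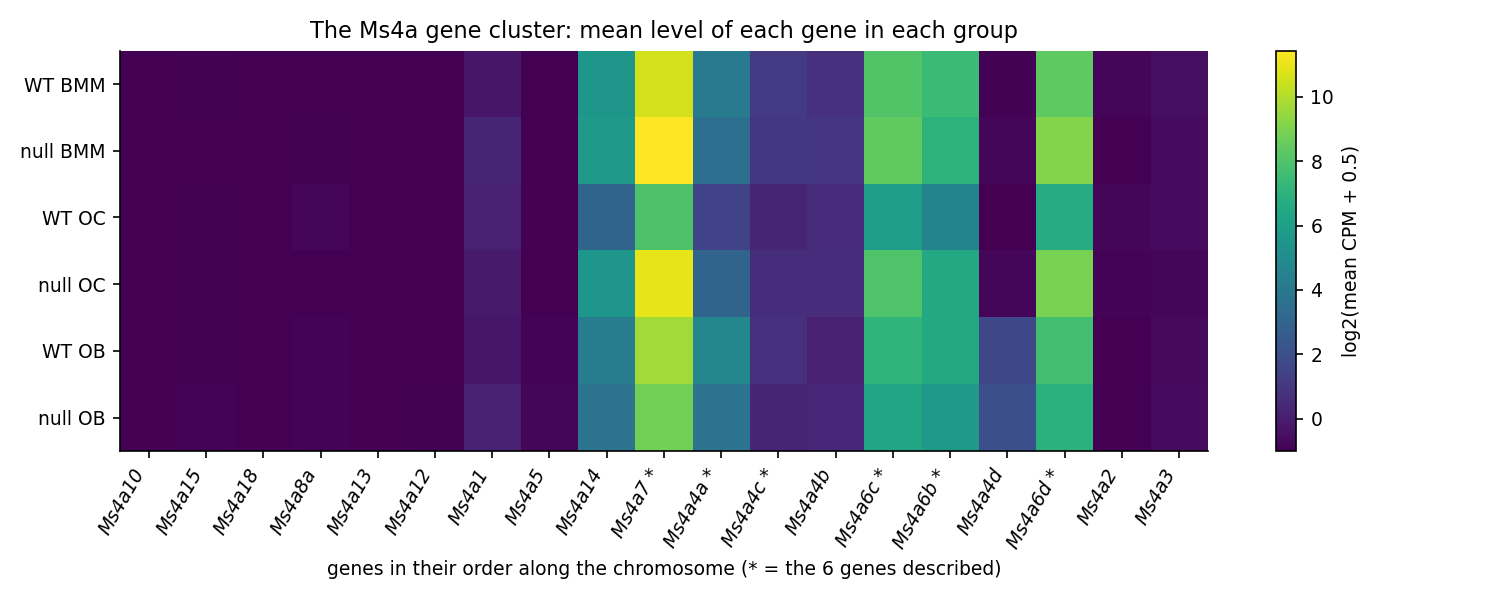
Mean level of each of the 19 Ms4a genes, in chromosome order along the horizontal axis, in each of 6 groups, as log2(mean CPM + 0.5) in colour. The brightest columns in every group are Ms4a7, Ms4a6d, Ms4a6c and Ms4a6b, and Ms4a4d is above 1 CPM only in the OB groups.

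**Figure D2:**
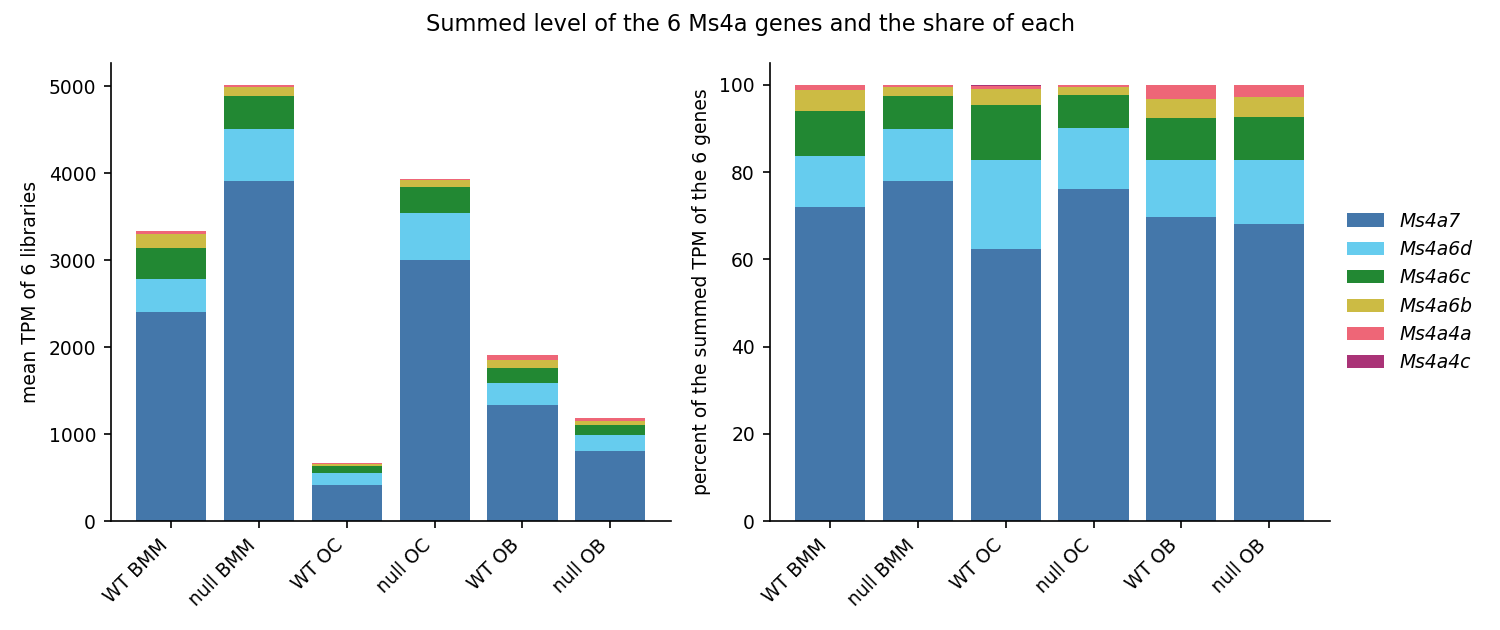
Left, stacked mean TPM of the 6 genes in each group of 6 libraries. Right, the percent of their summed TPM held by each gene; Ms4a7 ranges from 62.4% in WT OC to 77.9% in null BMM.

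Tests of differences used edgeR's quasi-likelihood test on the estimated counts, with Benjamini-Hochberg adjustment across every gene in the fit and a threshold of 0.05, and levels beside them are CPM. All 6 genes passed the filter on low counts in every comparison. Where groups are said to overlap or not, the share of all genes without overlap was not counted. Lack of overlap therefore describes the gene named and does not set it apart from other genes.

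In macrophages kept with M-CSF alone, null libraries held more Ms4a7, Ms4a6d and Ms4a6c and less Ms4a6b than WT ones, so that 3 of the 6 genes were higher and 1 lower. Of all 11925 genes tested, 52.3% passed the threshold, 27.0% as higher and 25.4% as lower. Ms4a7 lay between 1139 and 1872 CPM (median 1575) in the WT libraries and between 2198 and 3176 CPM (median 2811) in the null ones. Ms4a6d lay between 271 and 378 CPM (median 326) in WT and between 523 and 619.8 CPM (median 548) in null. For both genes every null library was above every WT library. The null BMM libraries themselves fell into 2 sets over all genes, with a chi-square per gene of 9.78 to 16.0 within the sets and 23.3 to 58.6 between them. Ms4a7 was 2198, 2642 and 2385 CPM in replicates 1, 5 and 6 and 3164, 3176 and 2980 CPM in replicates 2, 3 and 4, so both sets were above the WT libraries. Ms4a7 rose by 0.84 on the log2 scale (SE 0.12, 1.79-fold, adjusted p = 2.08e-05) and Ms4a6d by 0.80 (SE 0.08, 1.74-fold, adjusted p = 3.30e-07). Ms4a6c was 183 to 325 CPM (median 267) in WT and 298 to 426 CPM (median 327) in null, a rise of 0.37 (SE 0.12, adjusted p = 0.0170) with overlapping groups. On the scale of log2 TPM the Ms4a6c difference was 0.12 and not past the threshold (adjusted p = 0.398 by limma). The median of all genes on that scale was -0.15. The Ms4a6c call was also lost with the replicate block (0.38, adjusted p = 0.0531) and with offsets for transcript length (0.27, adjusted p = 0.0804) or length and GC content (0.25, adjusted p = 0.0655). Ms4a6b, in the same subfamily, went the other way. It was 118 to 222 CPM (median 179) in WT and 111 to 155 CPM (median 128) in null, and it fell by 0.43 (SE 0.13, 1.35-fold, adjusted p = 0.0105), again with overlap. Ms4a4a varied most among WT BMM libraries, from 5.47 to 30.3 CPM, and was 5.32 to 17.3 CPM in null (log2 difference -0.65, SE 0.40, adjusted p = 0.191). Ms4a4c was near 1 CPM, with 0.959 to 2.48 CPM in WT and 0.967 to 2.18 CPM in null (log2 difference -0.13, SE 0.29, adjusted p = 0.724), and without WT BMM replicate 2 its sign turned (0.02). The median difference of the 6 genes was 0.12, beside 0.02 for all genes tested.

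Of the 14 macrophage genes, 10 were lower and 3 higher in null BMM, with a median log2 difference of -0.51. Mrc1, the mannose receptor, fell by 2.30 while Adgre1, which encodes F4/80, rose by 1.99. Relative to the mean log2 CPM of those 14 genes in the same library, Ms4a7 was 1.31 higher in null, Ms4a6d 1.26 and Ms4a6c 0.85, with no overlap between genotypes, and Ms4a6b was 0.05 higher with overlap. That mean fell by 0.47 in null BMM, while the summed CPM of the 14 genes was 53043 in WT and 61459 in null as means. Such relative values thus depend on how the list is summarised. Of 12 neutrophil genes the summed level was 22.9 to 26.7 CPM in WT BMM and 216 to 246 CPM in null BMM, of which the protease gene Mmp8 made up 203 to 233 CPM. Of the 3 neutrophil genes tested 2 rose, Mmp8 by 3.30 and S100a8 by 5.98 (from a mean of 0.163 to 10.8 CPM), while S100a9, Elane and Retnlg were at 0 in both groups. Of 7 osteoblast genes tested 5 were higher and 2 lower in null BMM (median 2.05): Postn was 0.215 CPM in WT and 5.80 CPM in null as means, Sparc 1.09 and 17.5 CPM, and Spp1 fell by 1.53. The part of these other genes, or of the cells that express them, in the Ms4a differences was not tested.

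**Figure D3:**
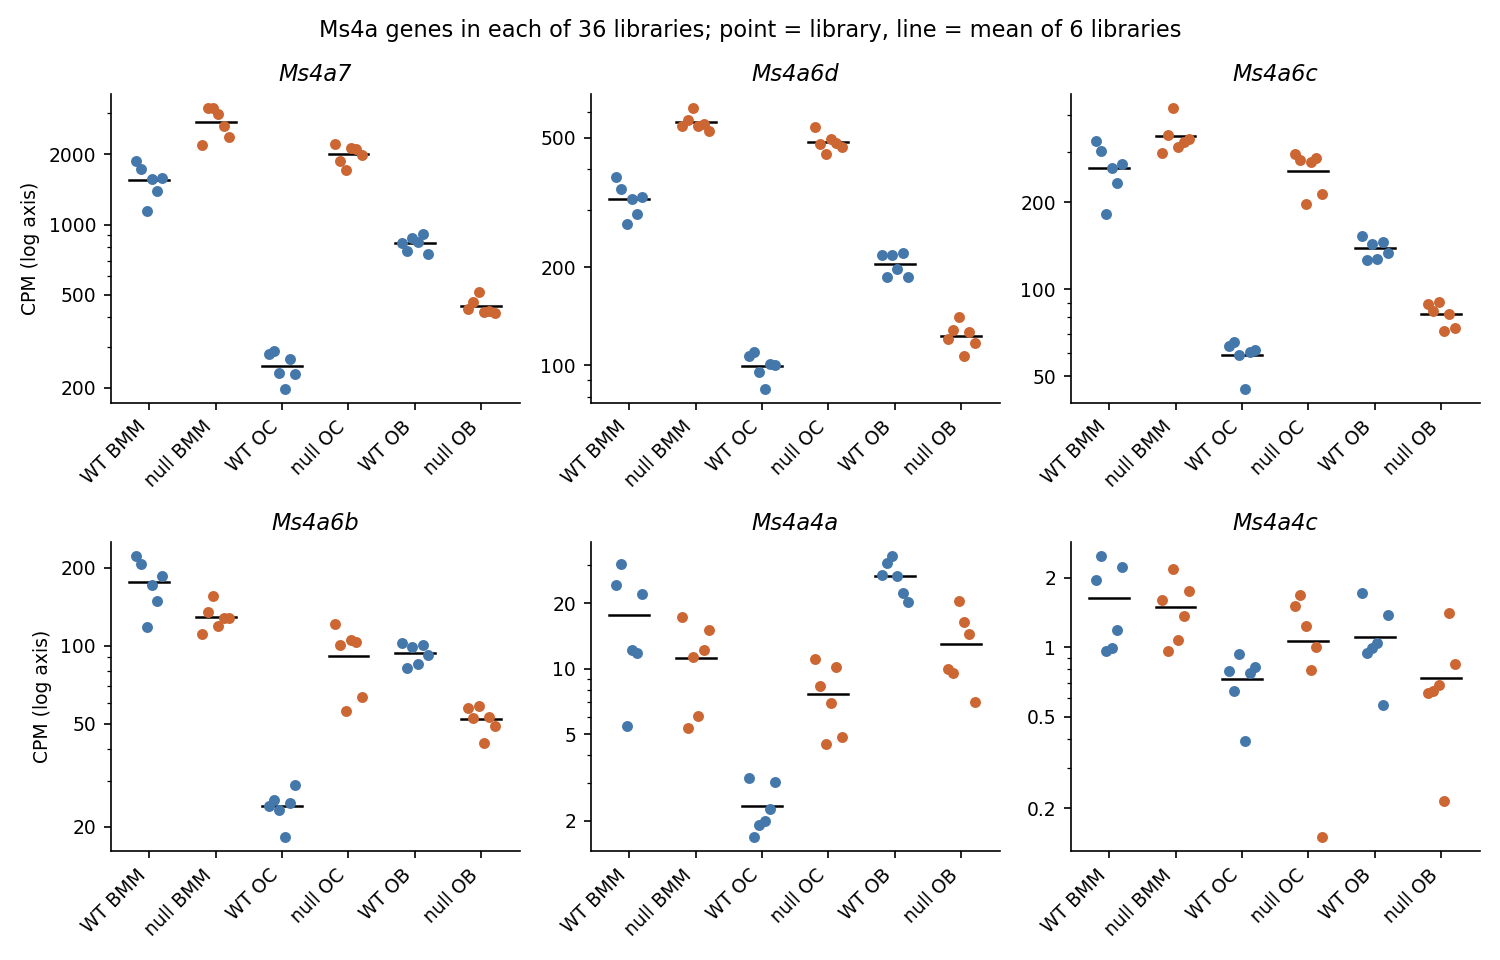
CPM (log axis) of each of the 6 genes in all 36 libraries, 1 panel per gene, WT in blue and null in orange, with a line at the mean of each group of 6. Ms4a7 in the 6 WT OC libraries (198 to 288 CPM) is below every other library, and the 6 null OC libraries (1717 to 2224 CPM) are near those of BMM.

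With RANK-L, all 6 genes were lower in WT OC than in WT BMM. Of 12661 genes tested, 60.5% passed, 30.4% as higher and 30.1% as lower. In WT OC, Ms4a7 was 198 to 288 CPM (median 249), Ms4a6d 84.7 to 109 CPM (median 101) and Ms4a6c 45.4 to 65.6 CPM (median 61.4). None of these overlapped with WT BMM. Ms4a7 fell by 2.64 on the log2 scale (SE 0.11, 6.24-fold, adjusted p = 3.40e-17), Ms4a6c by 2.15 (SE 0.13, 4.43-fold) and Ms4a6d by 1.70 (SE 0.07, 3.26-fold, adjusted p = 1.74e-17). The 2 genes with the largest decrease were of low and middle level. Ms4a6b was 18.3 to 29.1 CPM (median 24.4) in WT OC and fell by 2.86 (SE 0.17, 7.27-fold, adjusted p = 1.60e-13), and Ms4a4a was 1.69 to 3.15 CPM (median 2.13) and fell by 2.92 (SE 0.37, 7.55-fold, adjusted p = 2.30e-07). Both again lay wholly below their WT BMM values. Ms4a4c (0.390 to 0.933 CPM in WT OC) fell by 1.16 (SE 0.36, adjusted p = 0.00611), and this call was lost with an offset for transcript length (-1.08, adjusted p = 0.0596) and on log2 TPM (-0.87, adjusted p = 0.127 by limma). The median difference of the 6 was -2.40, beside -2.24 for the 14 macrophage genes, all of which fell, and 0.00 for all genes.

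In null cells the differences between OC and BMM were smaller. Of the 6 genes 3 were lower in null OC than in null BMM, where 12.9% of all genes passed, 6.78% as higher and 6.07% as lower. Ms4a7 fell by 0.45 (SE 0.11, adjusted p = 0.00950), Ms4a6c by 0.39 (SE 0.12, adjusted p = 0.0363) and Ms4a6b by 0.49 (SE 0.16, adjusted p = 0.0466). Null OC libraries held 1717 to 2224 CPM of Ms4a7 (median 2050.0), 447 to 541 CPM of Ms4a6d (median 481), 197 to 293 CPM of Ms4a6c (median 279) and 56.1 to 121 CPM of Ms4a6b (median 102). The ranges overlap those of null BMM for Ms4a7, Ms4a6d and Ms4a6b, while for Ms4a6c every null OC library was below every null BMM library (298 to 426 CPM). The differences of Ms4a6d (-0.19, adjusted p = 0.0674), Ms4a4a (-0.53, adjusted p = 0.305) and Ms4a4c (-0.46, adjusted p = 0.403) did not pass. The count depended on single libraries: it was 1 without null BMM replicate 2 or 3 or null OC replicate 3 or 6, and 4 without null OC replicate 1, where Ms4a6d passed (adjusted p = 0.0406). Null OC replicates 3 and 6 had the fewest estimated counts of all libraries (14638162 and 14118972). They were also the lowest of null OC for Ms4a6b (56.1 and 63.6 CPM), Ms4a6c (197 and 214 CPM) and Ms4a4a (4.51 and 4.88 CPM). The call of Ms4a6b was also lost without null BMM replicate 4, 5 or 6 or null OC replicate 2 (adjusted p = 0.0528 to 0.0641). With an offset for length and GC content the count was 0, and it was 1 with no filter on low counts, by limma-voom, and on log2 TPM.

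The difference between OC and BMM itself differed by genotype for 5 of the 6 genes in the interaction test, where 51.4% of all genes passed, 25.3% as higher and 26.1% as lower in null. The log2 response was higher in null by 2.39 for Ms4a4a (SE 0.50, adjusted p = 0.000285), 2.38 for Ms4a6b (SE 0.23, adjusted p = 3.35e-09), 2.19 for Ms4a7 (SE 0.15, adjusted p = 2.32e-12), 1.76 for Ms4a6c (SE 0.17, adjusted p = 1.95e-09) and 1.51 for Ms4a6d (SE 0.10, adjusted p = 6.49e-13). For Ms4a4c it was 0.71 (SE 0.50, adjusted p = 0.249). All 14 macrophage genes passed in the same direction, with a median of 2.09, beside 1.98 for the 6 genes.

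Set against WT OC, null OC held more of 5 of the 6 genes, where 65.6% of 12121 genes passed, 32.4% as higher and 33.1% as lower. Ms4a7 rose by 3.02 on the log2 scale (SE 0.09, 8.13-fold, adjusted p = 5.70e-14), Ms4a6d by 2.29 (SE 0.07, 4.90-fold, adjusted p = 2.95e-14), Ms4a6c by 2.13 (SE 0.11, 4.36-fold, adjusted p = 3.62e-11), Ms4a6b by 1.93 (SE 0.17, 3.82-fold, adjusted p = 7.87e-08) and Ms4a4a by 1.73 (SE 0.24, 3.31-fold, adjusted p = 9.03e-06). All 6 null OC libraries were above all 6 WT OC libraries for these 5 genes, and how many of all genes separated likewise was not counted. Ms4a4a was 4.51 to 11.1 CPM (median 7.67) in null OC, above 1.69 to 3.15 CPM in WT OC. Ms4a4c reached at most 1.68 CPM in null OC, with a median of 1.12 CPM (log2 difference 0.57, SE 0.38, adjusted p = 0.204). It passed without null OC replicate 6, the lowest library (0.77, adjusted p = 0.0254), and its sign turned on log2 TPM (-0.24, adjusted p = 0.718 by limma). On log2 TPM the median of all genes was itself -0.25, so this value was near that of genes at large. By edgeR the median of the 6 was 2.03, beside -0.03 for all genes.

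Beside this, 12 of the 14 macrophage genes were higher and 1 lower in null OC (median 1.61), and all 16 osteoclast genes were lower (median -5.29). Relative to the mean of the macrophage genes in the same library, Ms4a7 was still 1.68 higher in null OC, Ms4a6d 0.94 and Ms4a6c 0.76, with no overlap. Ms4a6b (0.52) and Ms4a4a (0.14) overlapped between genotypes on that scale, and Ms4a4c was 1.07 lower without overlap. The 0.5 CPM added before logs narrows differences at so low a level, and that of Ms4a4c was 0.27, smaller than by edgeR. The mean of the macrophage genes rose by 1.34, while their summed CPM was 15086 in WT OC and 56908 in null OC as means. Of the 3 neutrophil genes tested, 2 were higher in null OC and 1 lower. Mmp8 was 222 to 292 CPM in null OC and 12.2 to 15.6 CPM in WT OC, and S100a8 was 6.89 and 0.118 CPM as means. Of 8 osteoblast genes tested, 5 were higher in null OC and 0 lower (median 2.04). The part of these other differences in those of the Ms4a genes was not tested.

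**Figure D4:**
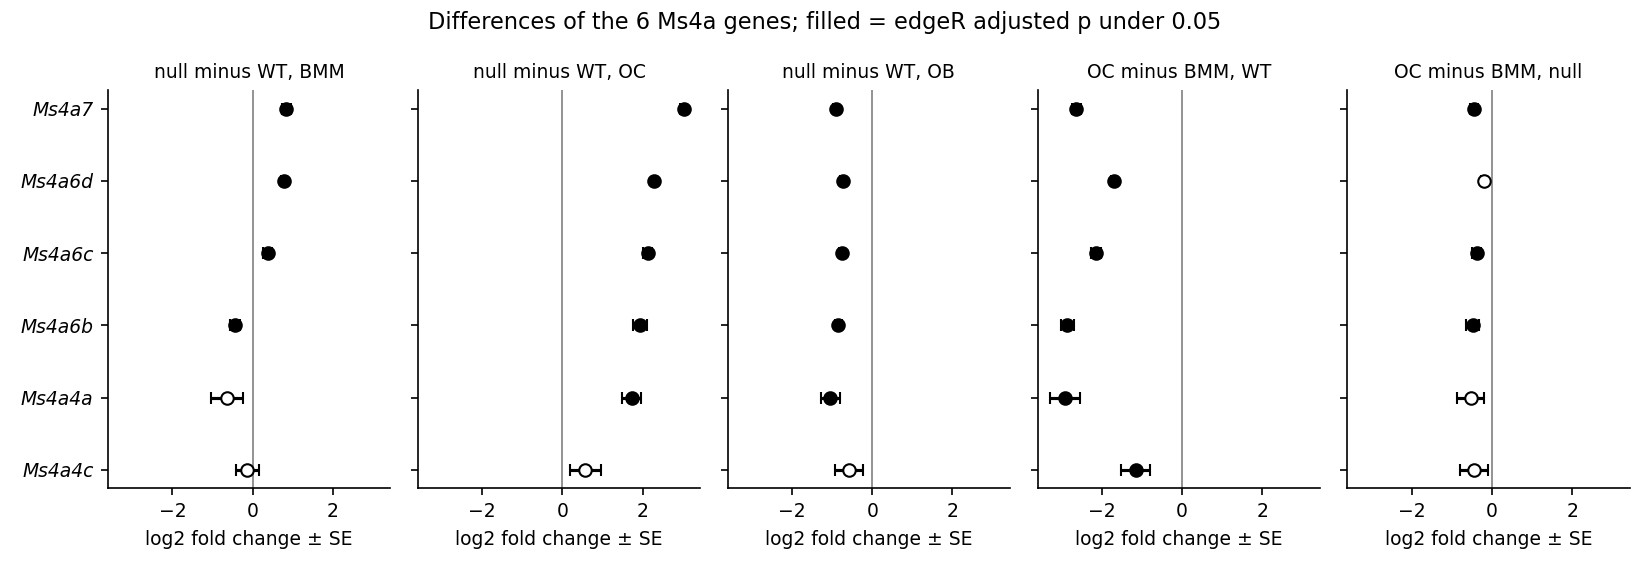
log2 fold change ± SE of the 6 genes in 5 comparisons, with filled points where the edgeR adjusted p is under 0.05. In OC minus BMM of WT cells all 6 points are left of 0, from -2.92 for Ms4a4a to -1.16 for Ms4a4c, and in null cells they lie between -0.53 and -0.19.

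In osteoblast cultures the direction was opposite, with 5 of the 6 genes lower in null, where 32.5% of 13607 genes passed, 15.5% as higher and 16.9% as lower. Ms4a7 lay between 748 and 914 CPM (median 841) in WT OB and between 417 and 516 CPM (median 429) in null OB. Ms4a6d was 186 to 221 CPM (median 208) in WT and 106 to 141 CPM (median 124) in null, and Ms4a6c 126 to 153 CPM (median 139) and 71.9 to 90.5 CPM (median 83.2). The genotypes did not overlap for these genes, nor for Ms4a6b, which was 81.7 to 103 CPM (median 95.1) in WT and 42.1 to 58.6 CPM (median 52.8) in null. Ms4a7 fell by 0.91 (SE 0.07, 1.87-fold, adjusted p = 1.22e-06), Ms4a6b by 0.85 (SE 0.08, 1.80-fold, adjusted p = 8.76e-06), Ms4a6c by 0.76 (SE 0.07, 1.70-fold, adjusted p = 6.18e-06) and Ms4a6d by 0.74 (SE 0.07, 1.67-fold, adjusted p = 7.30e-06). Ms4a4a reached its highest group mean in WT OB, at 20.2 to 32.9 CPM (median 26.7), against 7.05 to 20.4 CPM (median 12.1) in null OB, with slight overlap. It fell by 1.05 (SE 0.23, 2.06-fold, adjusted p = 0.00434), and with an offset for length and GC content the difference was -0.72 (adjusted p = 0.0601). Ms4a4c was 0.559 to 1.72 CPM in WT and 0.214 to 1.40 CPM in null (log2 difference -0.58, SE 0.35, adjusted p = 0.225).

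The macrophage genes moved with them: 10 of the 14 fell in null OB and 0 rose, with a median of -0.54, beside -0.80 for the 6 Ms4a genes and 0.00 for all genes. Of the 16 osteoclast genes 7 rose and 0 fell (median 0.31), and of the 15 osteoblast genes 7 rose and 1 fell (median 0.55). The complement genes C1qa, C1qb and C1qc fell by 0.86, 0.78 and 0.91. Relative to the mean of the macrophage genes in a library, the Ms4a differences were -0.43 for Ms4a7, -0.36 for Ms4a6b and -0.28 for Ms4a6c with no overlap, and -0.26 for Ms4a6d and -0.60 for Ms4a4a with overlap. The list difference on that scale was -0.47, while the summed CPM of the 14 genes was 17381 in WT OB and 10487 in null OB as means. The part of a smaller macrophage share, or of the other genes counted here, in the null OB differences was not tested.

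The genotype difference was lower in OB than in OC for 5 of the 6 genes (55.2% of 14268 genes passed, 27.8% as higher and 27.4% as lower in OB), from -3.91 for Ms4a7 (SE 0.15, adjusted p = 9.08e-23) to -2.76 for Ms4a6b (SE 0.21) and Ms4a4a (SE 0.47, adjusted p = 5.76e-06). For Ms4a4c it was -1.13 (adjusted p = 0.0620), which passed without null OC replicate 4 or 6, WT OB replicate 5 or null OB replicate 5 (adjusted p = 0.0131 to 0.0480). Between OB and BMM, 3 of the 6 genes differed (45.9% of genes passed, 21.6% as higher and 24.3% as lower): Ms4a7 by -1.73 (SE 0.14, adjusted p = 1.80e-12), Ms4a6d by -1.52 (SE 0.10, adjusted p = 1.10e-14) and Ms4a6c by -1.12 (SE 0.16, adjusted p = 2.94e-07). Ms4a6b (-0.40, adjusted p = 0.108), Ms4a4a (-0.38, adjusted p = 0.502) and Ms4a4c (-0.43, adjusted p = 0.506) did not pass.

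Among WT cells, OB cultures held less of 4 of the 6 genes than BMM (76.8% of genes passed, 41.5% as higher and 35.3% as lower) and more of 5 of the 6 than OC (77.9% passed, 41.3% as higher and 36.7% as lower). Against WT BMM the differences were -0.93 for Ms4a6c, -0.91 for Ms4a6b, -0.90 for Ms4a7 and -0.66 for Ms4a6d. Ms4a4a was the exception in level, at 0.59 above WT BMM (SE 0.30, adjusted p = 0.0766), and with all libraries it passed by limma-voom (0.62, adjusted p = 0.0147) and on log2 TPM (0.81, adjusted p = 0.0332 by limma). By edgeR it passed without WT BMM replicate 1 (0.70, adjusted p = 0.0487) or 2 (0.80, adjusted p = 0.0215). Against WT OC the largest difference was that of Ms4a4a, at 3.50 (SE 0.35, 11.4-fold, adjusted p = 6.15e-11), followed by Ms4a6b at 1.95, Ms4a7 at 1.74, Ms4a6c at 1.22 and Ms4a6d at 1.04. The 14 macrophage genes all fell from WT BMM to WT OB (median -1.63), while the median of the 6 Ms4a genes was -0.78.

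Ordered by mean CPM, Ms4a7 and Ms4a6d ran null BMM, null OC, WT BMM, WT OB, null OB, WT OC, and every step between neighbours passed an exact two-sided permutation test (adjusted p = 0.00541 to 0.0153 over 30 neighbour tests, where the smallest raw p of 6 against 6 is 0.00216). For Ms4a6d the step from null BMM to null OC passed here (exact permutation, adjusted p = 0.00928) but not in the edgeR test over all genes (adjusted p = 0.0674). For Ms4a6c the order was null BMM, WT BMM, null OC, WT OB, null OB, WT OC, and only WT BMM and null OC (263 and 258 CPM) did not differ (exact permutation, adjusted p = 0.907). Measured in TPM, null BMM and WT BMM (376 and 349 TPM) did not differ for Ms4a6c either (exact permutation, adjusted p = 0.4595). Ms4a6b began with WT BMM, followed by null BMM, WT OB, null OC, null OB and WT OC, and WT OB and null OC (93.3 and 91.5 CPM) did not differ (exact permutation, adjusted p = 0.792). The Ms4a6b step from null OC to null OB passed in CPM (exact permutation, adjusted p = 0.0122) but not in TPM (exact permutation, adjusted p = 0.0957). For Ms4a4a (WT OB, WT BMM, null OB, null BMM, null OC, WT OC) only the last step passed (7.66 against 2.34 CPM, exact permutation, adjusted p = 0.00541). For Ms4a4c 0 of 5 steps passed. By mean CPM WT OC was the lowest group for all 6 genes, and only Ms4a4a was highest outside BMM. For Ms4a4c the WT OC mean of 0.725 CPM was next to 0.737 CPM in null OB, and its median was higher (0.780 against 0.664 CPM).

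The ratio of Ms4a6b to Ms4a6c, the neighbours with the shared start sequence printed above, varied little among the libraries of each BMM and OB group and differed between genotypes most in BMM. In log2 units it was -0.59 ± 0.05 (SD, n = 6) in WT BMM and -1.39 ± 0.05 in null BMM, ranging from -0.64 to -0.54 and from -1.46 to -1.33. The null value was 0.80 lower, with no overlap (two-sided exact permutation p = 0.00216, adjusted p = 0.00696 over 45 ratios). WT OC stood at -1.29 ± 0.11 and null OC at -1.53 ± 0.21 (exact permutation p = 0.0238, adjusted p = 0.0429), and WT OB and null OB at -0.57 ± 0.03 and -0.65 ± 0.06 (exact permutation p = 0.0130, adjusted p = 0.0254). The WT OB value was thus next to that of WT BMM, and the null BMM value next to those of the OC groups. Ms4a6d against Ms4a7 gave another picture: the ratio was -2.25 ± 0.09 in WT BMM and -2.29 ± 0.17 in null BMM (exact permutation p = 0.587), but -1.31 ± 0.09 in WT OC and -2.04 ± 0.08 in null OC (exact permutation p = 0.00216, adjusted p = 0.00696). In OB it went the other way, from -2.02 ± 0.05 in WT to -1.85 ± 0.08 in null, 0.17 higher (exact permutation p = 0.00433, adjusted p = 0.0108). Over the 15 pairs of the 6 genes, the ratio differed between genotypes for 10 in BMM, 14 in OC and 2 in OB. Over the 10 pairs without the scarce Ms4a4c it differed for 7, 9 and 2. Pairs of other genes were not counted, so these counts cannot be read as particular to Ms4a genes. Of single genes tested, 52.3% passed between genotypes in BMM, 65.6% in OC and 32.5% in OB. Ms4a6b and Ms4a6c share transcript sequence (see the shared 31-base runs above), and the part of misassigned reads in their ratio was not tested.

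**Figure D5:**
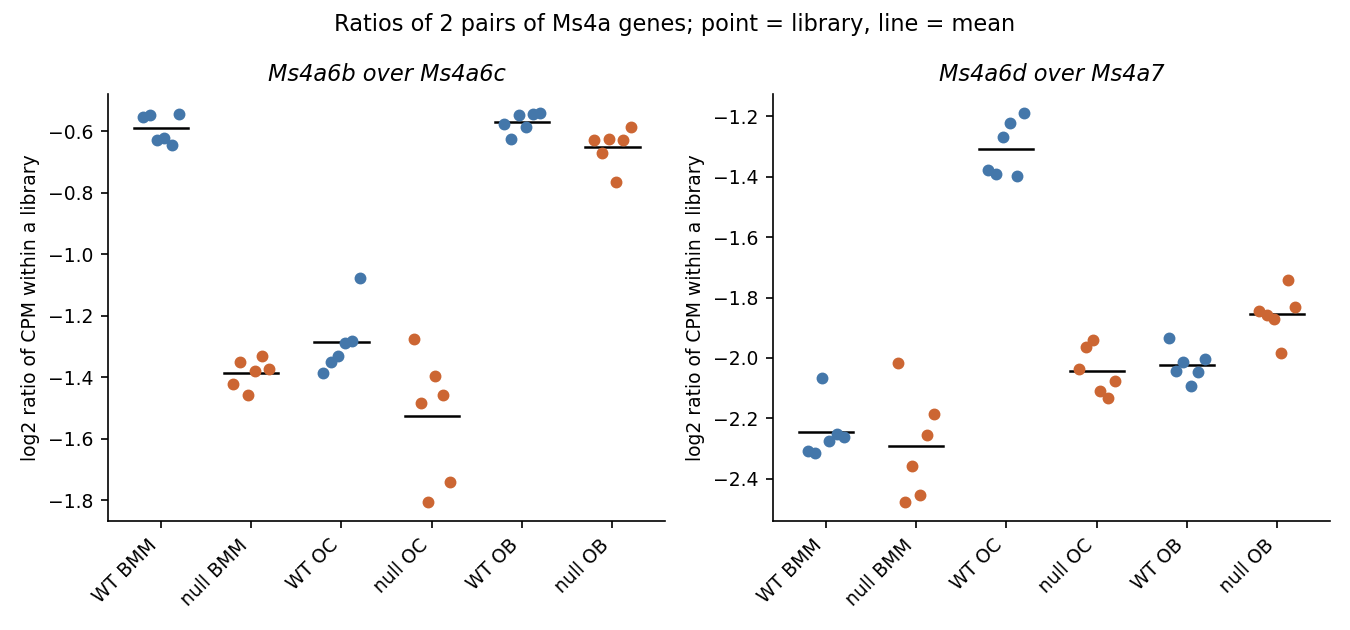
log2 ratio of CPM within each library for Ms4a6b over Ms4a6c (left) and Ms4a6d over Ms4a7 (right), points for libraries and lines for means of 6, WT in blue and null in orange. On the left the WT BMM and both OB groups sit between -0.77 and -0.54 and the other groups at -1.08 or below.

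The share of gene TPM held by the main transcript differed between genotypes in 7 of 13 tests (exact permutation, adjusted over the 13). Transcript shares of other genes were not tested, so this count cannot be read as particular to Ms4a genes. For Ms4a6c the main transcript held 51.4% ± 1.01 (SD, n = 6) in WT BMM and 59.0% ± 2.80 in null BMM (exact permutation, adjusted p = 0.0141). For Ms4a6d it held 87.4% ± 3.60 in WT OC and 96.6% ± 1.09 in null OC (exact permutation, adjusted p = 0.0141), and 95.1% ± 0.95 in WT OB and 91.1% ± 3.16 in null OB (exact permutation, adjusted p = 0.0281). For Ms4a7 the shift was 1.60 percentage points in BMM and 2.58 in OC, around 50.1% to 52.7%. Ms4a6b passed in 0 of 3 cell types. Measured as shares of estimated counts, 7 of 13 passed as well.

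Of the other 13 Ms4a genes in the cluster, Ms4a14, the neighbour of Ms4a7, was the most abundant and was not among the 6. It was 46.8 CPM in WT BMM, 52.3 in null BMM, 7.46 in WT OC, 45.3 in null OC and 18.0 in WT OB as means of 6 libraries. It fell by 2.65 from WT BMM to WT OC (SE 0.12, adjusted p = 6.66e-17), rose by 2.61 in null OC (SE 0.12, adjusted p = 6.70e-12) and fell by 0.47 in null OB (SE 0.10, adjusted p = 0.00174), and in BMM it did not pass (0.17, adjusted p = 0.189). Ms4a4d was 2.79 CPM in WT OB and 3.66 CPM in null OB, beside at most 4 counts in any BMM or OC library. WT OB was at least 17.6-fold above WT BMM, whose libraries had at most 1 count (floor of 3 counts per library). Ms4a4b, a T cell gene, stayed between 0.608 and 1.48 CPM as group means, and Ms4a1 between 0.315 and 0.740 CPM. Ms4a2 and Ms4a3, genes of mast cells and granulocyte precursors, were at 0.224 CPM or less, and the summed levels of 6 B cell, 6 T cell and 7 mast cell genes were at most 12.8, 4.25 and 4.95 CPM in any library. The related genes Tmem176a and Tmem176b, which lie outside the cluster, differed in pattern. They rose in null BMM by 3.23 and 3.46 (SE 0.18 and 0.15) and with RANK-L in WT by 1.88 and 2.00 (SE 0.25 and 0.23).

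The nearest expressed protein-coding genes around the cluster (5 on each side and 1 inside it) were counted in the same comparisons. In null BMM 2 of 11 were higher and 4 lower, in WT OC 7 of 11 were lower and 3 higher, in null OC 5 of 10 were higher and 2 lower, and in null OB 1 of 10 was lower and 2 higher. Slc15a3, a transporter gene, fell by 2.61 in WT OC and rose by 2.82 in null OC. Mpeg1, which encodes the pore-forming protein perforin-2 of macrophages, fell by 2.09 in WT OC and rose by 1.14 in null OC, but fell by 0.95 in null BMM (adjusted p = 1.85e-08).

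Genes of proteins known to work with Ms4a proteins, 10 in all, were counted beside them. In BMM 3 of 9 tested were higher and 3 lower in null. Clec7a, the receptor that Ms4a4a binds, fell by 1.82 (SE 0.09, adjusted p = 1.60e-10), from a mean of 57.1 to 16.1 CPM, and the granulin gene Grn fell by 1.01 and the inflammasome gene Nlrp3 by 0.62. Syk, the kinase downstream of Clec7a, rose by 0.58, the complement receptor gene Vsig4 by 1.08, from 0.536 to 1.12 CPM, and the cytokine gene Il1b from at most 4 counts in any WT library to 21 to 52 counts. In WT OC 6 of 9 fell, among them Trem2 (by 2.14) and its adaptor Tyrobp (by 0.48), and in null OC 5 of 8 rose, with Trem2 at 1.76, Nlrp3 at 0.97 and Syk at 0.70. In null OB 4 of 9 fell: Trem2 by 0.74, Tyrobp by 0.67, Card9, the adaptor downstream of Syk, by 0.44, and Grn by 0.40.

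Genes of alternative activation and of the glucocorticoid response, states in which Ms4a4a is known to be high, were counted beside Ms4a4a. Of 9 tested, 5 fell and 2 rose in null BMM (median -0.26), where Mrc1, the scavenger receptor gene Cd163 (by 1.32) and the arginase gene Arg1 (by 2.81) fell and the Ms4a4a difference was -0.65 and did not pass. In WT OC 7 fell and 1 rose (median -1.30), with Cd163 lower by 3.19, in null OC 7 rose and 0 fell (median 0.50), and in null OB 4 fell and 1 rose. Of 12 interferon genes 10 fell in null BMM and 0 rose (median -1.23), led by Irf7 (by 2.18) and Ifit2 (by 2.20), and 9 fell in WT OC and 1 rose (median -0.93). In null OC 2 fell and 1 rose.

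The genes most like each of the 6 over the 36 libraries were ranked by Pearson r of log2(CPM + 0.5) among 12630 genes with a mean of at least 1 CPM, as a description, since all points share 6 groups and the depth of their libraries. Ms4a7 was nearest to Wfdc17, Ms4a6d and Lpar6 (r = 0.986 for each). Ms4a6d was nearest to Aoah (r = 0.988), Ms4a7 (0.986) and P2rx4 (0.976), and Ms4a6c to Ms4a7 (0.985), Il10ra (0.982) and Wfdc17 (0.980). For these 3 genes another of the 6 was thus among the 3 nearest. Ms4a6b was nearest to Selenop (0.976), Rapsn (0.966) and Mylip (0.962), Ms4a4a to Snapin (0.909), Tmem159 (0.896) and Smim14 (0.891), and Ms4a4c to Trim30d (0.829), Ddx60 (0.780) and Slfn8 (0.760).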

How the data were processed

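RNA sequencing data of 36 libraries, 6 in each of 6 groups, were taken as deposited. Each deposited table lists 88198 mouse Ensembl transcripts with an estimated count and a TPM value that the authors made with kallisto, per the submitters' processing notes. The TPM column, so named per the file headers, relates estimated counts to transcript length and scales each library to the same sum. Those notes also name DESeq2 and the human build GRCh38, although the transcripts are mouse; versions are not given in the sources used here. Transcripts were matched to genes in GENCODE M21 (GRCm38): 97.5% matched, and those that did not held 0.629% to 0.974% of counts.

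Estimated counts were summed by gene and rounded. edgeR 4.0.16 in R 4.3.3 (TMM scaling, its own filter on low counts, quasi-likelihood test) was run on the 12 libraries of a genotype comparison, the 24 of the RANK-L comparisons and all 36 otherwise. CPM used TMM factors over all 36 libraries, with 0.5 added before logs. The code was tested on simulated data, where power to detect the smaller of the simulated interactions fell with the noise set between replicates. That noise was below the spread of Ms4a4a in the BMM and OC groups (SD 25.9% to 52.9% of the mean). The simulated power therefore does not carry over to that gene. Alternatives were a replicate block, scaling by RLE, a filter at 10 counts on average or none at all, offsets for length and GC content, DESeq2 1.42.0, limma 3.58.1 (voom, or log2 of TPM + 0.1) and leaving out each library. Ratios of members, levels relative to macrophage genes, and flanking genes were added after seeing the data. The 6 genes and all lists were chosen with earlier results of these data known. Named were the 6 genes, Ms4a relatives of at least 1 CPM in a group, Tmem176a, Tmem176b, the partner list, the 3 genes most like each member, at most 3 genes of every other list with the smallest p, and markers given as values. Libraries with the same replicate number did not deviate together in all 6 pairs of any comparison, and the main tests did not pair them. This cannot show that no libraries are paired. Of 6 WT BMM libraries, 3 were most like the WT OC library of the same number (r of same-numbered pairs -0.05 to 0.09).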

Additional observations from a re-analysis of the deposited data

Results flagged for a closer look

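In 2 of 36 sets of 6 libraries 1 value stood apart from the rest, where chance gives about 1 set in 20. Ms4a6c was 426 CPM in null BMM replicate 3 and 298 to 343 CPM in the other libraries of that group. Ms4a6c was 45.4 CPM in WT OC replicate 4 and 59.4 to 65.6 CPM in the others. Over all genes that library also stood apart, with a chi-square per gene of 12.1 to 24.6 against the other WT OC libraries. Among those others it was 3.31 to 9.11. Replicate 4 was also the lowest of WT OC for Ms4a7 (198 CPM), Ms4a6d (84.7 CPM), Ms4a6b (18.3 CPM) and Ms4a4c (0.390 CPM), but not for Ms4a4a.

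The log2 difference between OC and BMM was higher in null than in WT by 2.39 for Ms4a4a, 2.38 for Ms4a6b, 1.76 for Ms4a6c, 1.51 for Ms4a6d and 2.19 for Ms4a7, each past the threshold in the edgeR interaction test. The genotype difference in OB minus that in OC was -2.76 for Ms4a4a, -2.76 for Ms4a6b, -2.87 for Ms4a6c, -3.02 for Ms4a6d and -3.91 for Ms4a7. The genotype difference in OB minus that in BMM was -1.12 for Ms4a6c, -1.52 for Ms4a6d and -1.73 for Ms4a7. These tests share libraries with one another, and the osteoclast genes of the null OC libraries were far below those of WT OC.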

How the results depend on the processing

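Of the values of single members under alternatives that keep all libraries, 532 kept direction and side of the threshold, 17 lost their call, 6 gained one and 3 reversed. Leaving out 1 library gave 915, 12, 8 and 1. The reversals were Ms4a4c in OC (-0.24) and in the interaction (-0.17) on log2 TPM, Ms4a4a in OB minus BMM with the length and GC offset (0.025), and Ms4a4c in BMM without WT BMM replicate 2 (0.021, range -0.27 to 0.021 over libraries left out). On log2 TPM the median of all genes was -0.25 in OC, -0.08 in the interaction, -0.15 in BMM and 0.17 in OB. In null OC against null BMM the 3 members past the threshold became 1 with no filter, 1 by limma-voom, 1 on log2 TPM and 0 with the length and GC offset, and 1 to 4 without 1 library. There the count of all genes, 1628, was 1013 by limma-voom and 810 to 2143 without 1 library. In OB the length and GC offset lowered the count of all genes from 4420 to 2373. The cause of these changes was not tested. Ordering groups by TPM kept 4 of 6 places for Ms4a4c. With the replicate block 3 members passed in BMM, 5 in OC, 5 in OB, 6 between WT OC and WT BMM, 3 between null OC and null BMM, 5 in the interaction, 5 in OB minus OC and 3 in OB minus BMM, and the 1 call it changed was that of Ms4a6c in BMM. Ms4a4c had 2 to 51 counts per library, which limits what its tests can detect.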
